A study of Mus musculus with 2 samples.

Results

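Ctsg-high non-cycling mast cells were 2976 of the 17296 non-cycling mast cells in a single-cell RNA library of colonies grown from mouse aorta, which is 17.2% (exact Clopper-Pearson 95% interval 16.6 to 17.8%). They were 12.2% of the 24344 mast cells and 8.76% of the 33964 barcodes that passed the quality limits. Mast cells were barcodes with at least 1.5% of their gene UMIs (unique molecular identifiers, 1 per captured RNA molecule) from Cpa3 and Cma1, under 0.1% from C1qa, C1qb and C1qc and under 0.2% from Col1a1, Col1a2, Col3a1 and Dcn. They counted as non-cycling with UMIs of at most 1 of the 6 genes Mki67, Top2a, Birc5, Cdk1, Ube2c and Cenpf. The members were the cells in the top 25% of these, chosen by Ctsg per gene UMI, that also had at most 2 UMIs of Slc6a4 plus Ctse and at most 2 of Mrgprb1 plus Mrgprb2.

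Per the labels, aortic cells of 2 male C57BL/6J mice aged 12 weeks, with no genetic change or treatment named, were grown for 14 days in methylcellulose, and dissociated macrophage colonies were sorted for live cells. Methylcellulose is a semi-solid medium in which a progenitor and its progeny stay together as a colony. The mice were pooled in 1 library, so no cell can be traced to a mouse by a label, cells are not replicates, and no p-value is given. All intervals are 95% intervals that cover counting error only.

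Cathepsin G, the product of Ctsg, is a serine protease stored in the granules of neutrophils and mast cells. In the mouse its gene lies among the mast cell chymases and granzymes, a cluster of related serine protease genes. Mast cells grow from progenitors that carry KIT, the receptor for stem cell factor, and CD34, a sialomucin of blood progenitors that mouse mast cells can keep. As they mature they fill their granules with chymases, tryptases, carboxypeptidase A3, histamine and heparin.

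The whole library had 34813 barcodes, and several of its features bear on the values below. The matrix also held 3 tag features, and 49.6% of the members and 47.1% of the other non-cycling mast cells carried the tag named Cafum alone, while 45.9 and 46.9% carried no tag above background. Although the labels name male mice, 68.5% of all non-cycling mast cells had a UMI of Xist, the RNA of the inactive X chromosome. Members had a median of 11502 gene UMIs and 3174 genes per cell, against 9634 and 2951 in the other 14320 non-cycling mast cells. Mitochondrial UMIs had medians of 2.15 and 2.09%, and called doublets, which were kept, made up 8.30 and 10.1%.

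Ctsg chose the members, so its level is a description. Ctsg (ENSMUSG00000040314; GRCm38 chromosome 14, 56099881 to 56102574, minus strand) was at 854 CPM (counts per 1000000 gene UMIs, from summed UMIs; 845 to 863) in members and at 85.3 CPM (83.9 to 86.8) in the other non-cycling mast cells. No Ctsg UMI was found in 10883 of the 17296 cells (62.9%). The threshold of the top 25% lay at 133 CPM per cell, and the members just inside it were at 133 CPM while the cells just outside it were at 132. Within 20% of the threshold lay 605 cells below and 509 above, of which 299 were members. Ctsg per cell ran from 133 to 6879.7 CPM among members, with a median of 469.6 and quartiles of 237 and 997. The members are thus the upper end of a continuous range and not a separate peak. Near the threshold the call rests on few molecules, since 360 members had 1 Ctsg UMI and 387 had 2, while 982 had 10 or more.

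**Figure D1:**
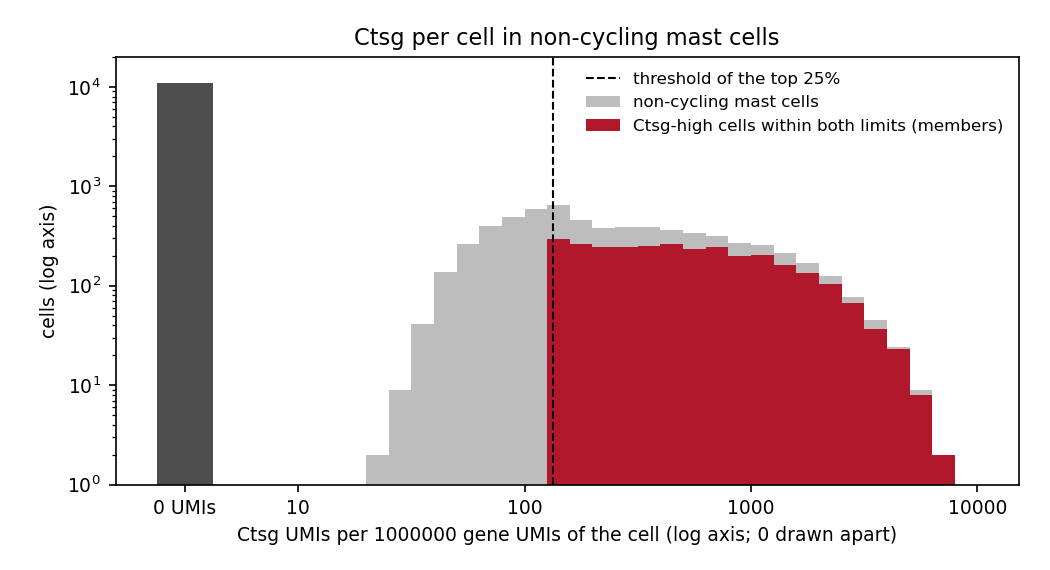
Number of non-cycling mast cells (grey) and of members (red) by Ctsg per cell in CPM, both axes on a log scale, with the 10883 cells without a Ctsg UMI drawn apart and the threshold of 133 CPM dashed. Grey above red to the right of the line marks the cells left out by the limits on the Slc6a4, Ctse, Mrgprb1 and Mrgprb2 UMIs, and no gap separates members from the cells below.

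Each non-cycling cell's UMIs were also split at random, with Ctsg ranked in 1 portion and measured in the other. Cells chosen in this way had 808 CPM of Ctsg in the portion not used to rank them, against 95.8 CPM in the rest, a ratio of 8.43. A Ctsg UMI was found there in 74.9% of them and in 18.7% of the rest. With every cell thinned to 5000 UMIs, which left out 80 members and 997 others, 90.02% of members and 14.9% of the others had a Ctsg UMI (all members and 24.0% of the others unthinned). The thinned share was 7.56% in Ctsg-low cells, defined as the 6789 cells below the threshold and within both limits. It was 8.06% in macrophage barcodes and 9.21% in fibroblast barcodes, which had median depths of 7399 and 31385 UMIs before thinning. The share in Ctsg-low cells was fixed by their choice for low Ctsg, so nothing is read from it.

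The limits left out 1348 of the 4324 cells of the top 25%, 795 of them for Slc6a4 plus Ctse (the serotonin transporter and cathepsin E), 725 for the Mrgprb receptors and 172 for both. Cells above the threshold made up 26.1% of the cells past the Slc6a4 and Ctse limit, 13.1% of those past the Mrgprb limit and 30.5% of those within both. In cycling mast cells, which the rule did not touch, Ctsg was at 491 CPM, and 48.2% of 7048 cells were above the same threshold. Cycling cells were deeper, with a median of 19662 UMIs, and with all cells thinned to 5000 UMIs a Ctsg UMI was found in 49.7% of cycling and 28.3% of all non-cycling mast cells.

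The label markers other than Ctsg did not set the members apart to a like degree. Cd34 (chromosome 1, 194938819 to 194961279, plus strand) was at 82.1 CPM (79.2 to 85.0) in members and 65.6 CPM (64.4 to 66.9) in the others, a ratio of 1.25 (1.20 to 1.30). In thinned cells a Cd34 UMI was found in 30.5% of members and 25.5% of the others (54.3 and 44.0% unthinned), against 3.19% of macrophage and 8.27% of fibroblast barcodes. Cycling mast cells were above members, with a Cd34 UMI in 33.7% of thinned cells and 87.1 CPM. Kit (chromosome 5, 75574916 to 75656722, plus strand) was at 1385 CPM (1373 to 1397) in members and at 1484 CPM (1478 to 1489.7) in the others, a ratio of 0.933 (0.924 to 0.942). Against Ctsg-low cells the Kit ratio was 1.01, and a Kit UMI was present in 98.6% of thinned members and 99.3% of thinned others, with 28.0% in macrophage and 38.3% in fibroblast barcodes. The name Ctsg-high therefore rests on Ctsg, with Cd34 slightly higher and Kit at similar levels in members and others.

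Of 9170 genes at 5 CPM or more over both groups and not used by the rule, 85 (0.927%) were at least 1.5 times higher in members than in the other non-cycling mast cells. A further 294 (3.21%) were at least 1.5 times lower, and the median ratio of all tested genes was 0.963, with 41.5% of them above 1 and 58.5% below. Part of this comparison is set by the limits, since the other cells include those rich in Slc6a4, Ctse and Mrgprb UMIs. Against Ctsg-low cells, which met the same limits in UMIs, 50 genes (0.545%) were higher and 150 (1.64%) lower, with a median of 0.987. Members were deeper than these cells (median 11502 against 8954 UMIs), so a limit in UMIs was stricter for members per UMI. The limited genes still differed, with ratios of 0.498 for Mrgprb2, 0.610 for Mrgprb1, 0.740 for Ctse and 0.903 for Slc6a4. The narrower comparison thus does not fully remove the limits. Of the 85 genes, 44 were past the same fold against Ctsg-low cells and all 85 were above 1. Of the 294, 134 were past it downward and all 294 were below 1. Over all 9170 tested genes 4186 were above 1 and 4984 below. The genes were chosen with the same members, and Ctsg-low cells are part of the others. Their direction was thus largely set by the choice.

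The same genes were then read in cycling mast cells, which the rule did not use, by applying the Ctsg threshold and both limits to them. That gave 2424 Ctsg-high cycling cells and 4624 others. All 85 genes higher in members had a ratio above 1 there, with a median of 1.30, while 45.3% of all tested genes did. Only 7 of the 85 passed 1.5, where 8 genes (0.0872%) of all those tested did. Of the 294 lower genes, 290 were below 1 in cycling cells and 179 were at least 1.5 times lower, with a median of 0.635 and a background of 228 genes (2.49%). These cycling cells came from the same library and were split by the same measure, so this describes the same material in a second set of cells and is no replicate.

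**Figure D2:**
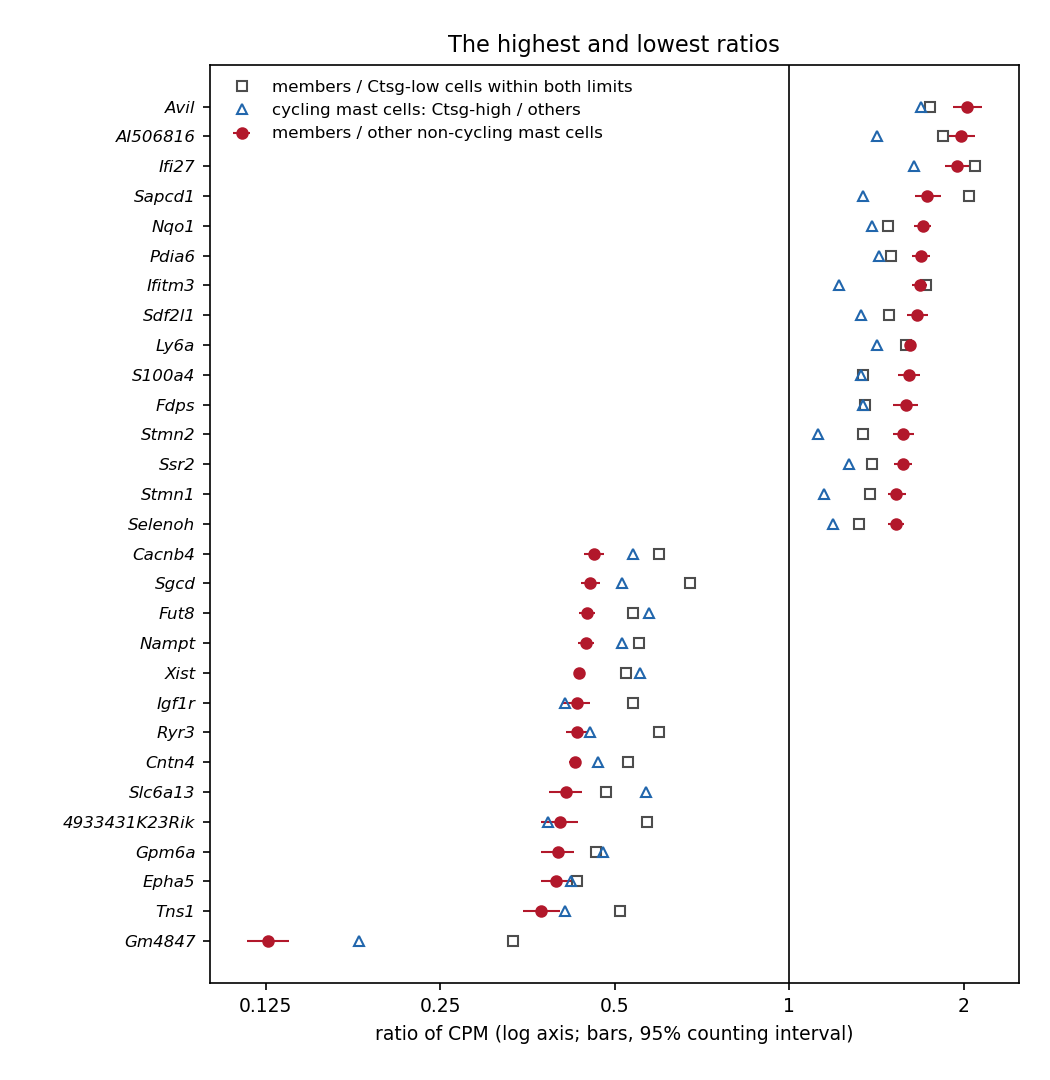
Ratio of CPM for the 15 highest and 14 of the 15 lowest genes among those at 50 CPM or more in the higher of the 2 groups, on a log axis, as members over other non-cycling mast cells (filled circles, with counting intervals), members over Ctsg-low cells (squares) and Ctsg-high over other cycling mast cells (triangles). Avil is highest at 2.03 and Gm4847 lowest at 0.126, and squares and triangles lie on the same side of 1 as the circles.

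The protease genes around Ctsg were not all higher with it. Mcpt8, a protease best known from basophils whose gene is the nearest protease gene to Ctsg on chromosome 14, was at 15.4 CPM (14.2 to 16.7) in members and 6.93 CPM (6.52 to 7.35) in the others, a ratio of 2.22. Its UMIs were rare, in 6.39% of thinned members and 2.96% of thinned others (unthinned, 445 members and 899 others), above the 0.208% of macrophage and 0.425% of fibroblast barcodes. Cycling mast cells were near members, with an Mcpt8 UMI in 6.12% of thinned cells and 14.7 CPM. Gzmb, encoding granzyme B at the other end of the cluster, was at 703 CPM against 511, a ratio of 1.38 (1.36 to 1.39). A Gzmb UMI was found in 88.1% of thinned members, 78.8% of thinned others and 89.5% of thinned cycling mast cells. The shares in macrophage and fibroblast barcodes were 19.0 and 22.5%.

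Mcpt4, a chymase of connective tissue mast cells, was at 12057 CPM in members and 10026 CPM in the others, a ratio of 1.20. The chymase gene Cma1, which the rule used to define mast cells, was on the other side at 21940.0 against 24729.8 CPM, a ratio of 0.887. Mcpt2 (14.5 and 10.9 CPM) and Cma2 (42.1 and 39.0 CPM) had ratios of 1.34 and 1.08. Gzme, Gzmg, Gzmn and Gzmf, which lie between Ctsg and Gzmb, had 0 UMIs in members, and Gzmd had 2. The chymases are near-identical in parts, so reads of these paralogs may have been split between them.

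**Figure D3:**
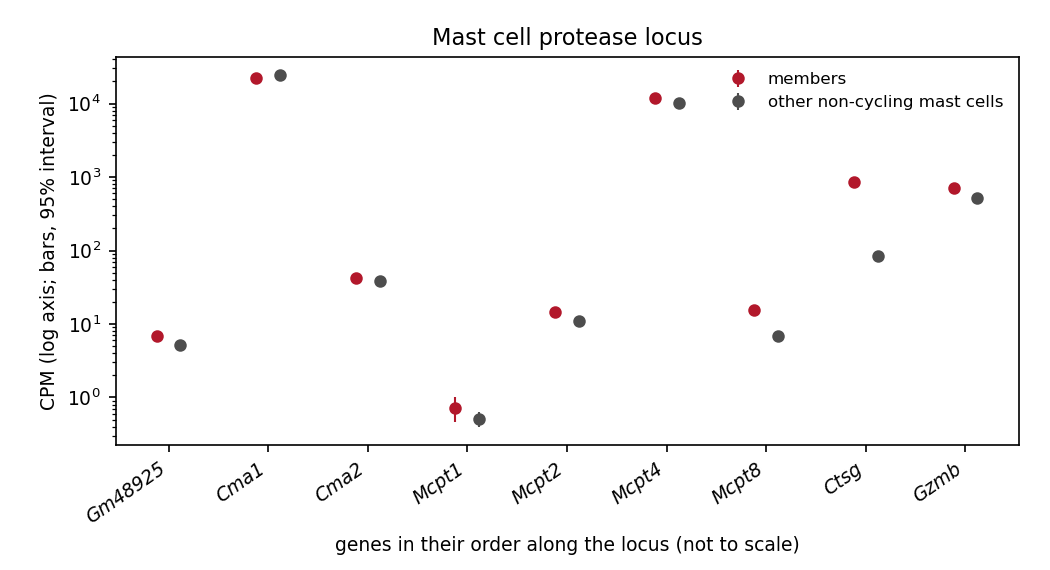
Level in CPM (log axis, with Poisson intervals) of the genes with 100 or more UMIs at the protease cluster on chromosome 14, in their order along the chromosome, in members (red) and other non-cycling mast cells (grey). Ctsg differs by 10.01 times, by choice of the members, while Mcpt4 and Gzmb are higher in members by 1.20 and 1.38 times and Cma1 is lower.

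The 250 bases before the RefSeq start are shown for Ctsg, the gene that defines the members, and for Cma1, the most abundant gene of the cluster, whose ratio lay on the other side of 1 (GRCm38.p6, 5′ to 3′, both genes on the minus strand). Capitals mark matches on either strand to the GATA words AGATAA or AGATAG or TGATAA or TGATAG, to CATGTG or CACGTG (E-box) or to GGAAGT (an ETS-type core).
Ctsg, chr14:56102575-56102824: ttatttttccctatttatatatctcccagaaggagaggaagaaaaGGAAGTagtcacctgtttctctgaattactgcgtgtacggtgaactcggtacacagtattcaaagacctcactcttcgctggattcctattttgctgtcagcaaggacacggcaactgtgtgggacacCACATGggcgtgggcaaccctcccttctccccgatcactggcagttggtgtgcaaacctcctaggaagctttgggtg
Cma1, chr14:55944676-55944925: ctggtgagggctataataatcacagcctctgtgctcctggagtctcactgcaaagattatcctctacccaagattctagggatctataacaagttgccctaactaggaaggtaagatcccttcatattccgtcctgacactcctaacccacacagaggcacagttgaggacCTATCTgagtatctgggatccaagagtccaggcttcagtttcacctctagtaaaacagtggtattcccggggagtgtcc
The Ctsg window held the E-box CATGTG on its minus strand at -77 and GGAAGT at -205 and none of the GATA words, while the Cma1 window held AGATAG on its minus strand at -79 and neither other motif. Of the other 3 windows searched, that of Mcpt4 held TGATAA on its plus strand at -103 and those of Mcpt8 and Gzmb held no match. Over 32851 promoters of this length, 26.5% held a GATA word, 17.6% an E-box of these letters and 19.7% GGAAGT, so such matches are common and are a description only. Nothing is read from them about binding.

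Outside the cluster, tryptase and carboxypeptidase genes differed little. Tpsb2, the tryptase most abundant here, was at 6173 CPM in members and 7227 in the others (ratio 0.854), and Cpa3, used by the rule, at 19962 and 19123 CPM (1.04). Of 9 tested mast cell protease genes, 7 were above 1, 1 was at least 1.5 times higher (Mcpt8) and 1 at least 1.5 times lower, with a median of 1.15. The lower gene was Prss34, another protease shared with basophils, at 31.1 against 48.9 CPM (0.636), and its ratio to Ctsg-low cells was 0.871. Of 9 basophil genes, 1 was past the fold upward and 3 downward, with a median of 0.749. Over all tested genes these shares were 0.927 and 3.21%, with a median of 0.963. Against Ctsg-low cells 1 basophil gene was past the fold upward and 0 downward, with a median of 0.871.

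Elane, Mpo and Prtn3, the granule genes that accompany Ctsg in neutrophil precursors, were at or near 0. Of the 17 listed genes of this kind, 12 were below 5 CPM over both groups and 3 had 0 UMIs in members. Members had 0 UMIs of Elane, which encodes neutrophil elastase, and 0.0263 and 0.263 CPM of Mpo and Prtn3, the genes of myeloperoxidase and proteinase 3. Of 17 such granule genes only 4 were abundant enough to be tested. Ms4a3, a marker of granulocyte and monocyte precursors, was at 7.79 against 4.40 CPM (1.77). Ctsc, encoding the protease that activates cathepsin G and other granule proteases, was at 142 against 187 CPM (0.756). Serpinb1a, which encodes an inhibitor of such proteases, and Cst7, a cystatin gene at 237 CPM in members, had ratios of 1.12 and 1.21. None of 10 neutrophil markers reached 5 CPM, their sum was 6.10 CPM in members and 8.46 in the others, and the neutrophil surface gene Ly6g was at 0 in members.

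Markers of further cell types were at similar or lower levels in members. The 12 macrophage markers summed to 104 CPM in members and 108 in the others, and the 8 fibroblast markers to 218 and 235. The rule itself capped 3 of these macrophage and 4 of these fibroblast markers in both groups. Their low sums are thus partly fixed by the rule, and nothing is read from them. The 7 monocyte markers summed to 98.4 and 122 and the 9 endothelial markers to 104 and 118. Of these endothelial markers only Cdh5 and Tie1 were at 0 in members. Another 2 were abundant enough to be tested, with ratios of 0.720 and 0.935. Among 12 erythroid and megakaryocyte markers, which summed to 245 and 342 CPM, the globin gene Hbb-bs was at 53.5 against 99.3 CPM (0.538). That difference rests on a handful of cells, since 5 cells held 83.0% of its UMIs in members and 64.5% in the others, and the ratio was above 1 in several alternatives.

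Progenitor genes other than Cd34 were mixed. Of 13 tested stem and progenitor genes, 7 were above 1 (53.8%, against 41.5% of all tested genes), and their median was 1.04. Ly6a, which encodes the surface protein Sca-1, was the only one past the fold, at 1028 CPM (1018 to 1039) in members and 635 CPM (631 to 639) in the others, a ratio of 1.62. A Ly6a UMI was found in 77.7% of thinned members and 65.6% of thinned others (87.8 and 77.2% unthinned), with 22.5% in macrophage and 66.8% in fibroblast barcodes. The share in the other mast cells is thus no higher than in fibroblast barcodes. Meis1, Myb and Erg, regulators of blood progenitors, had ratios of 0.997, 0.987 and 1.07. Flt3, a receptor of early progenitors, was at 0.132 CPM in members.

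Ly6a belongs with a small set of surface and interferon-inducible membrane protein genes that were all above 1. The 5 tested Ly6 and Ifitm genes had a median of 1.38 and ranged from 1.24 to 1.68. Ifitm3, which restricts virus entry, was highest at 151 against 89.9 CPM, and Ifitm2 was at 1357 against 1097 CPM. Ifi27, another interferon-inducible gene, was at 61.8 CPM in members and 31.6 CPM in the others (1.95). Both Ifitm3 and Ifi27 were higher still in fibroblast barcodes, at 1239 and 132 CPM.

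Ribosome biogenesis genes were all above 1, where 41.5% of all tested genes were. The 18 tested genes ran from 1.15 to 1.61 with a median of 1.37. Past the fold were 3, of which Nop56 alone was past it against Ctsg-low cells (1.60), while 0.927% of all tested genes were past it upward. Srm, the spermidine synthase gene, was at 45.9 against 28.5 CPM, and Nop56 and Nolc1, which encode nucleolar proteins, were at 22.8 and 28.4 CPM against 14.6 and 18.9. In cycling mast cells Srm, Nop56 and Nolc1 were above members, at 66.2, 41.8 and 49.2 CPM. Myc, which drives many of these genes, was at 14.9 against 10.3 CPM (1.45). Of 89 ribosomal protein genes, 80 were above 1 (89.9%), with a median of 1.13, and together they took 21.1% of member UMIs and 18.7% of those of the others.

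Replication genes were also above 1 although the cells were chosen as non-cycling. Of 18 tested replication and mitosis genes that the rule did not use, 17 were above 1 (94.4%), 5 were past the fold, and the median was 1.31. Over all tested genes 0.927% were past the fold upward and the median was 0.963. Mcm5, Mcm7 and Mcm2, subunits of the replicative helicase, were at 9.76, 14.4 and 11.8 CPM in members against 5.65, 8.33 and 7.33 CPM, with ratios of 1.73, 1.72 and 1.61. In cycling mast cells these Mcm genes were above members, at 28.4, 52.6 and 25.6 CPM. Ccnb2 and Stmn1 were at 1.70 and 1.53, while Pcna, at 78.7 against 73.9 CPM, was at 1.06. With both groups limited to cells with no UMI of the 6 cycling genes the 3 Mcm ratios were 1.45, 1.46 and 1.42, so none was past the fold, and Ccnb2 was at 1.65. Against Ctsg-low cells Mcm5 was past the fold at 1.54, and Mcm7, Mcm2, Ccnb2 and Stmn1 were not, at 1.49, 1.37, 1.39 and 1.38. Cdkn2a, the tumour suppressor locus of p16 and p19, was at 48.2 against 28.0 CPM (1.72) at the same time, the only 1 of 11 cyclin and inhibitor genes past the fold.

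The rest of the 15 highest genes were chosen by their ratio among genes at 50 CPM or more in the higher of the 2 groups, so some met this limit only through members. Pdia6, a protein disulfide isomerase, was at 126 against 74.7 CPM (1.69). Sdf2l1, a chaperone cofactor, was at 80.3 against 48.2 CPM, and Ssr2, part of the translocon, at 116 against 73.9 CPM. Avil, which encodes the actin-binding protein advillin, had the highest ratio of these genes, at 50.5 CPM (48.3 to 52.8) against 24.9 CPM (24.1 to 25.6) and 29.8 CPM over both groups. Nqo1, a quinone reductase, was at 108 against 63.5 CPM, and Fdps, an enzyme of sterol synthesis, at 53.2 against 33.5 CPM. S100a4, Stmn2, Selenoh, Sapcd1 and AI506816 completed the 15, at ratios between 1.53 and 1.98. The order within these 15 follows the fold and not a test. Cycling mast cells were above members for Pdia6 (173 CPM), Sdf2l1 (109), Ssr2 (141), Nqo1 (130.2) and Fdps (58.3). The same held for Selenoh (251 against 115 CPM in members) and AI506816 (88.6 against 54.7). Avil (45.0 CPM), S100a4 (80.8), Stmn2 (69.2) and Sapcd1 (39.3) were lower in cycling mast cells than in members.

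Of 18 tested amine, serglycin and heparin genes, 4 were past the fold downward and 0 upward, against 3.21 and 0.927% of all tested. The median was 0.819, and 12 (66.7%) were below 1, near the 58.5% of all tested genes. Hdc, the enzyme that makes histamine, was at 759.7 CPM (751 to 768) against 1203 CPM (1197 to 1208), a ratio of 0.632, and 83.3% of thinned members and 91.8% of thinned others had a UMI of it, with 16.9 and 24.4% of macrophage and fibroblast barcodes. Slc18a2, the transporter that loads histamine and serotonin into granules, was at 349 against 536 CPM (0.650). Ext1 and Chst11, which act in heparan and chondroitin sulfate synthesis, were at 0.636 and 0.659. Tph1, the serotonin synthesis enzyme, and Srgn, the granule proteoglycan core protein, were within the fold at 1.01 and 1.06. Against Ctsg-low cells the ratios of Hdc and Slc18a2 were 0.694 and 0.764, and none of the 18 genes was past the fold there.

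The mast cell lineage regulators were mostly somewhat below 1. Of 21 tested transcription factor genes, 18 were below 1 (85.7%, against 58.5% of all tested genes) and 0 were past the fold, with a median of 0.852. Gata2 was at 626 against 735 CPM, Mitf at 174 against 226 CPM and Runx1 at 1116 against 1390.4 CPM, while Spi1, the gene of PU.1, was at 1.04. All 23 IgE receptor signalling genes were within the fold, with a median of 0.920, and the receptor chains Fcer1a, Ms4a2 and Fcer1g were at 0.912, 0.961 and 0.993. Among 17 receptors of growth and survival factors, Il1rl1, the IL-33 receptor gene, was at 1839 against 2552 CPM (0.721). Il18r1 and Il18rap, the chains of the IL-18 receptor, lay on opposite sides at 0.634 and 1.63, although Il18rap was only at 7.55 CPM. Against Ctsg-low cells Il18r1 was within the fold at 0.896 and Il18rap was at 1.53. Il18r1 was at 237 CPM in cells past the Mrgprb limit, which members exclude by rule.

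Of 17 tested cytokine and chemokine genes, 5 were past the fold downward and 1 upward, with a median of 0.802. Over all tested genes 3.21% were past it downward and 0.927% upward, with a median of 0.963. Ccl7, a chemokine for monocytes, was at 301 CPM (295 to 306) in members against 630.4 CPM (626 to 634), a ratio of 0.477, and 0.627 against Ctsg-low cells. Csf1, the macrophage growth factor, was at 43.7 against 76.8 CPM, and Vegfa, Il13 and Il6 were at 0.588, 0.635 and 0.657. Against Ctsg-low cells Ccl7 and Vegfa (0.615) were past the fold, and Csf1, Il13 and Il6 were not (0.698, 0.677 and 0.706). Ccl2, more abundant, was within the fold at 0.802, and Ccl17 was the 1 higher gene, at 8.63 against 5.24 CPM. Of 13 adhesion and homing genes, Itga2, Ccr1 and Itga4 were past the fold downward, at 0.498, 0.609 and 0.621, but none was against Ctsg-low cells, at 0.737, 0.791 and 0.721. Ccr3, the eotaxin receptor gene, was at 3.55 against 10.8 CPM (0.327), and was past the fold against Ctsg-low cells too, at 0.450 (0.370 to 0.545).

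**Figure D4:**
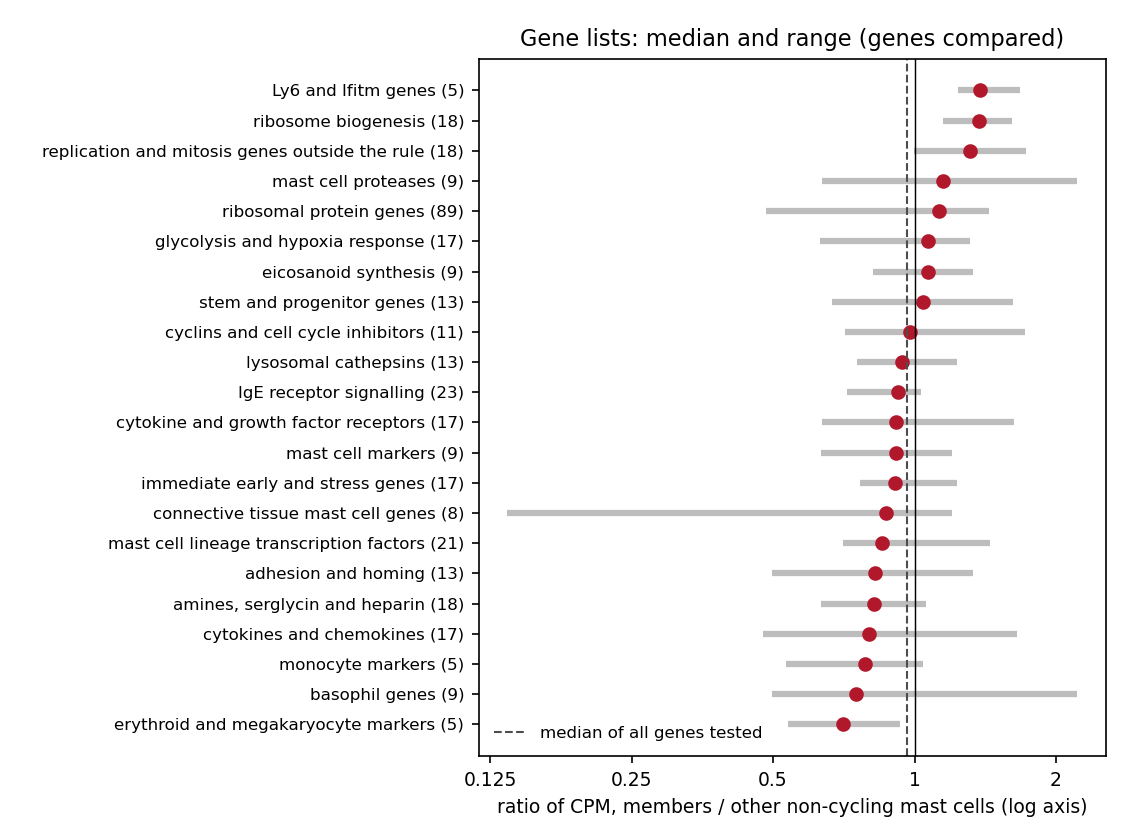
Median ratio (red) and range (grey) of CPM, members over other non-cycling mast cells, for gene lists with 5 or more tested genes, the number compared in brackets, with the median of all tested genes (0.963) dashed on a log axis. Ribosome biogenesis (1.37), Ly6 and Ifitm genes (1.38) and replication genes (1.31) have the highest medians.

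The lowest genes of all were of other kinds. Gm4847 was at 16.1 CPM (14.9 to 17.5) in members and 128 CPM (126 to 129.7) in the others, a ratio of 0.126, and at 48.3 CPM in Ctsg-low cells. Nrgn, which encodes neurogranin, was at 1.95 against 14.4 CPM (0.136), and 5 cells held 59.5% of its member UMIs. Slc6a13, a transporter of GABA and taurine, was at 0.412 times its level of 60.7 CPM in the others (0.385 to 0.440), with UMIs in 9.91% of thinned members and 21.2% of thinned others. Cntn4, a neuronal adhesion gene, was at 181 against 425 CPM, Fut8, the core fucosyltransferase, at 116 against 259 CPM, and Nampt, which makes NAD, at 115 against 257 CPM. Tns1, Epha5, Gpm6a, 4933431K23Rik, Igf1r, Ryr3, Sgcd and Cacnb4 had ratios between 0.374 and 0.460. The other cells include those past the Mrgprb limit, which members exclude by rule. In those cells Gm4847, Nrgn, Slc6a13, Cntn4, Fut8 and Nampt were at 259, 29.1, 85.2, 539, 355 and 353 CPM. Against Ctsg-low cells the ratios of these 6 genes were 0.334, 0.364, 0.483, 0.528, 0.537 and 0.551. The 8 genes from Tns1 to Cacnb4 lay between 0.430 and 0.674 there. Cacnb4, Fut8, Ryr3, Slc18a2 and 4933431K23Rik overlap a gene on the other strand. So do Xist, Avil, Pdia6, Sapcd1, Cd34, Mcm7, Nop56, Itga4 and Chst11 among the named genes. The use of strand in counting is not given in the sources used here.

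The genes lower in members had long spans. The median gene span was 67.0 kb for the 294 lower genes, 11.7 kb for the 85 higher genes and 25.6 kb for all 9170 tested. Spans over 100 kb were found for 43.2, 8.24 and 13.6% of them. By span, the median ratio was 1.06 up to 10 kb, 1.00 from 10 to 30 kb, 0.918 from 30 to 100 kb and 0.840 above 100 kb. Against Ctsg-low cells these medians were 1.03, 1.01, 0.964 and 0.918. Malat1, an RNA that stays in the nucleus, took 2.13% of member UMIs and 2.55% of those of the others. The part of intronic reads or of nuclear RNA in these ratios was not tested.

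Xist was detected in a smaller share of members. A Xist UMI was found in 47.6% of members (45.8 to 49.5%) and 72.8% of the others (72.1 to 73.5%), or 36.4 and 66.2% of thinned cells, and Xist was at 219 against 504 CPM (0.434). A UMI of Ddx3y, Uty, Kdm5d or Eif2s3y, genes of the Y chromosome, was found in 23.6 and 23.2%. Neither Xist nor a Y gene was detected in 38.1% of members and 15.8% of the others. Put the other way, members were 8.81% (8.18 to 9.47%) of the 7651 non-cycling cells with 3 or more Xist and no Y gene UMIs, and 20.6% (18.9 to 22.4%) of the 2061 cells with a Y gene UMI and no Xist. The share was highest, at 33.4% of 3389, in cells with neither. These classes are set by detection and depth, and whether they are cells of different mice cannot be told from the labels.

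The named genes, chosen by their ratio over all these cells, were also described within these classes. Of the 15 highest genes, all 15 were above 1 in cells with a Y gene UMI and no Xist and 14 were in cells with 3 or more Xist and no Y gene UMIs, but only 6 and 11 were past the fold there. Ly6a had ratios of 1.19 and 1.21 in these classes, below the fold, where all cells gave 1.62. Ifi27 was at 1.74 and 1.14 and Sapcd1 at 1.05 and 0.917. Mcpt8 was at 1.63 and 2.59, and Avil at 1.75 and 1.96. Among the 14 lowest genes other than Xist, 12 and 14 were below 1. Ccl7 was at 0.906 in cells with a Y gene UMI and 0.442 in cells with Xist, and Gm4847 at 0.842 and 0.127. Cacnb4 (1.00), Slc6a13 (1.11), Il18r1 (1.06) and Ccr1 (2.07) were not lower in members with a Y gene UMI. Hdc, at 0.635 and 0.712, Cntn4, at 0.498 and 0.574, and Csf1, at 0.556 and 0.608, were lower in both. The difference between the classes was not tested, as the library has no replicate.

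Members varied along Ctsg itself. They were cut by Ctsg into low, middle and high sets of 992 cells, at 133 to 301, 302 to 757 and 757 to 6879.7 CPM of Ctsg, and set beside 5663 cells within both limits with no Ctsg UMI and 1126 with Ctsg below the threshold. All 15 highest genes had their lowest level in the low set and their highest in the high set, and all 15 lowest genes ran the other way. These genes were chosen for their ratio between Ctsg-high cells and the others, so this order describes the chosen genes and supports nothing further. Avil was at 27.7 CPM in cells without a Ctsg UMI and at 38.2, 43.3 and 66.6 CPM in the low, middle and high sets. Mcpt8 was at 5.79 CPM without Ctsg and at 11.2, 12.2 and 21.5 CPM in the 3 sets, and Ly6a at 652, 840.3, 974 and 1225 CPM. Cd34 was at 74.6, 75.8 and 93.5 CPM in the 3 sets, so it stood out in the high set, while Kit stayed between 1362 and 1401 CPM.

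Among lower genes, Hdc went from 1133 CPM without Ctsg to 929, 812 and 579.6 CPM in the 3 sets, and Cntn4 from 356 to 266, 194 and 103 CPM. Gm4847 was highest just below the threshold, at 63.8 CPM, and at 10.8 CPM in the high set. Depth and Xist moved along with these steps. Median UMIs were 8463 in cells without Ctsg and 9699.5, 11812 and 13189.5 in the 3 sets, and a Xist UMI was found in 64.9, 57.5, 50.9 and 34.6%. Their part in the steps was not tested.

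**Figure D5:**
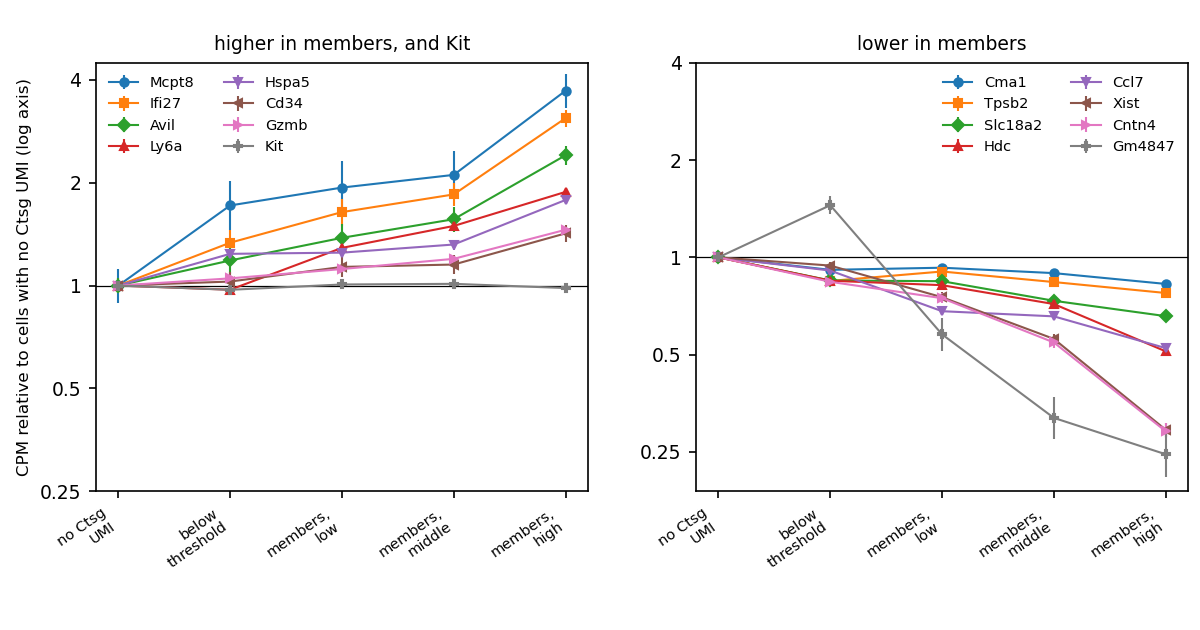
Level of 16 genes over 5 steps of Ctsg, relative to cells with no Ctsg UMI (log axis; bars are Poisson intervals of each level), in non-cycling mast cells within both limits. Mcpt8, Ifi27, Avil and Ly6a are highest in the high set of members, Kit is level, and Hdc, Xist, Cntn4 and Gm4847 are lowest there.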

How the data were processed

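Raw UMI counts of 1 droplet library (10x Genomics) were deposited, and the file headers name Cell Ranger 7.0.0. The submitters' processing notes also list STAR, R 4.1.3, Seurat 4.1.1 and the build mm10, without their roles. The second sample, a tag library, was left out, and whether intronic reads were counted is not given in the sources used here. Barcodes with at least 500 genes, at least 1000 gene UMIs and at most 10% mitochondrial UMIs were kept. UMIs were summed over cells and given as CPM with exact Poisson intervals. Ratios carry exact conditional intervals and shares carry Clopper-Pearson intervals. Cells were thinned to 5000 UMIs to compare detection. Scrublet (scanpy 1.11.5) marked doublets, which were removed only as an alternative. Genes were named if among the 15 highest or 15 lowest ratios at 50 CPM or more in the higher group, if a listed gene passed 1.5, or for their role and abundance in a list. For 1 of the 15 lowest genes no values are reported here, although counts over these 15 include it. Members, lists and the rule were chosen with earlier results of these data known. Gene spans come from GENCODE on GRCm38, and promoters from RefSeq. The ratio and the rule were tested on simulated counts (Python 3.11.15, numpy 2.4.6, scipy 1.17.1).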

Additional observations from a re-analysis of the deposited data

How the results depend on the processing

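The 61 named genes other than the label markers were chosen for their ratios in these cells, and most alternatives reuse many of the same cells. Keeping a side of 1 was thus largely set in advance and describes the chosen genes only. Of 1157 ratios of these genes over 19 alternatives, 1146 kept their side of 1. The 11 others were Hbb-bs at 1.11 (top 50% by Ctsg), 1.11 (Cpa3 plus Cma1 at 3% or more), 1.25 (middle 50% by Malat1) and 1.03 (no Xist UMI), Cacnb4 at 1.05 and Ccr1 at 1.75 with no Xist UMI, Cacnb4 at 1.00, Ccr1 at 2.07, Il18r1 at 1.06 and Slc6a13 at 1.11 with a Y gene UMI and no Xist, and Sapcd1 at 0.917 with 3 or more Xist and no Y gene UMIs. The cause was not tested. The share of members depends on the cut by construction, at 7.76% for the top 10%, 56.5% for the top 50% (whose threshold is 0 UMIs, so that it takes every cell within both limits), 14.1% with the top 25% taken within both limits and 27.8% after thinning, where the threshold was 1 UMI. It was 17.9% with the Cafum tag alone, 18.2% in the middle 50% by Malat1, 28.6% without and 12.0% with Xist, and 20.6% and 8.81% in the Y gene and Xist classes. The Cd34 ratio stayed above 1, at 1.34 for the top 10% and for members with 5 or more Ctsg UMIs, 1.10 for the top 50%, 1.17 without any cycling gene UMI, 1.14 without Xist, 1.11 with a Y gene UMI, 1.20 with Ctsg ranked on the other portion of UMIs and 1.17 as a mean per cell. With a Y gene UMI and no Xist the interval of the Cd34 ratio, 0.993 to 1.23, included 1. The Kit ratio was 0.924 without called doublets, 0.881 for the top 50%, 0.954 with Cpa3 plus Cma1 at 3% or more, 1.01 against Ctsg-low cells, 0.917 with the Cafum tag alone and with Xist, 0.911 without Xist, 0.886 and 0.907 in the Xist and Y gene classes, 0.984 in the middle 50% by Malat1 and 0.922 with 5 or more Ctsg UMIs and as a mean per cell. The counts of higher and lower genes were 85 and 294 in the main comparison, 184 and 496 for the top 10%, 23 and 151 for the top 50%, 50 and 150 against Ctsg-low cells, 185 and 457 with 5 or more Ctsg UMIs, 27 and 139 at 20 CPM or more and 1864 and 3685 with no filter beyond 3 UMIs. The higher genes alone moved to 52 without any cycling gene UMI, 51 with Cpa3 plus Cma1 at 3% or more, 145 with a Y gene UMI and no Xist and 56 in the middle 50% by Malat1. The Xist and Y gene classes, the Malat1 range and the minimum of 5 Ctsg UMIs were chosen after seeing the data. Depth limits genes below 5 CPM and cells near the threshold. No paired analysis was possible because there is 1 library.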
